A study of Mus musculus with 8 samples.

Results

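The mitochondrial ribosomal proteins are the proteins named Mrpl (large subunit) and Mrps (small subunit) that, with ribosomal RNAs made inside the organelle, form the ribosome of mitochondria. Members were taken by gene symbol: a probe set belonged to the group if it carried a single symbol made of Mrpl or Mrps, a number and at most 1 letter from a to c. This gave 73 of the 25349 probe sets on the arrays, for 69 of the 21515 genes with a symbol of their own: 41 genes of the large subunit on 42 probe sets and 28 genes of the small subunit on 31 probe sets. Membership rests on names and used no measured value, but the group itself was chosen with earlier results of these data known. Another 6 probe sets that share an Mrpl or Mrps symbol with a neighbouring gene were left out, which leaves Mrpl41, Mrpl43 and Mrpl44 not analysed here.

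Spleen B cells of mice, enriched by removing cells that carry CD43, were profiled on 8 whole-transcript arrays from Affymetrix, 2 labelled biological replicates in each of 4 groups. LMP1 cells came from female (C57BL6XBALBc) F1 mice of genotype LMP1flSTOP/YFPflSTOP, were given TAT-Cre, a recombinase that enters cells by itself, and were sorted for the YFP reporter after 2 days. YFP control cells came from female F1 mice of the same cross and genotype YFPflSTOP/+, with the same TAT-Cre and sort. CD40-activated cells came from male C57BL6 mice of strain B6/J and were kept for 2 days with an antibody against CD40. Naive control cells came from male B6/J mice too and went straight to RNA extraction, so culture and activation came together in the comparison with CD40-activated cells. An earlier series supplied the LMP1 and YFP control arrays. Cross, sex, TAT-Cre, sort and array set therefore separate these groups from the other pair and cannot be told apart there. LMP1 is the latent membrane protein 1 of Epstein-Barr virus, which signals in the membrane with no ligand and shares adaptors with CD40. Its expression follows removal of a stop cassette in a knock-in allele and is not measured on these arrays. No ages are stated in the labels, nor is it stated whether animals were pooled.

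The mitochondrial ribosome translates the messenger RNAs of mitochondrial DNA, which encode core subunits of the respiratory chain and of ATP synthase. All of its proteins are encoded in the nucleus, made in the cytosol and imported. Many are homologues of bacterial ribosomal proteins, and others were added in the mitochondrial lineage and cover the outside of the particle. Of the 69 members 42 were classed, from general knowledge, as bacterial homologues and 26 as specific to mitochondria. The remaining 1, Mrps36, keeps its symbol although it is now known as a subunit of the alpha-ketoglutarate dehydrogenase complex. Mrps30 and Mrps18a bear small-subunit names but sit in the large subunit in structures of the mammalian mitochondrial ribosome. B cells that leave the resting state grow and build up mitochondrial mass.

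Promoters of nuclear genes for mitochondrial proteins are known for sites of the ETS factor GABP (NRF-2), of NRF1 and of YY1. RefSeq promoter windows of build GRCm38.p6, reaching from 250 bases before to 50 bases after a gene's start, were available for 60 of the 69 member genes. Windows of 4 members, chosen after their values were seen, are printed 5′ to 3′ on the strand of the gene: Mrps27 and Mrpl42 rose in both LMP1 and CD40-activated cells, and the responses of Mrpl9 and Mrpl52 differed most, in opposite directions. Capitals mark matches, on either strand, to the ETS site CCGGAAG, to the YY1 core AAGATGGC, to a longer YY1 form that contains the core (the capitals beginning with it in the Mrps27 window) and to the palindromic NRF1 site (the capitals of the Mrpl9 window). Mrps27, a mitochondria-specific protein of the small subunit, lies at chr13:99344536-99344835 on the plus strand, and its window holds the long YY1 form and an ETS site in reverse. Mrpl42, a mitochondria-specific protein of the large subunit, lies at chr10:95501900-95502199 on the minus strand and holds the YY1 core. Mrpl9, the homologue of bacterial L9, lies at chr3:94443086-94443385 on the plus strand and holds an NRF1 site. Mrpl52, another mitochondria-specific protein of the large subunit, lies at chr14:54426659-54426958 on the plus strand and holds the ETS site in reverse at a pair of places.
Mrps27: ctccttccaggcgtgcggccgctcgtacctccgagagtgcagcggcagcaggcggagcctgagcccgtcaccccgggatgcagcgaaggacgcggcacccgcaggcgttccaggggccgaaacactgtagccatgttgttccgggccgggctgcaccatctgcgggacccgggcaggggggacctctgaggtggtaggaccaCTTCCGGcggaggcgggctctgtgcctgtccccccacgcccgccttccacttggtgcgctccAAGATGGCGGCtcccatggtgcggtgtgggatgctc
Mrpl42: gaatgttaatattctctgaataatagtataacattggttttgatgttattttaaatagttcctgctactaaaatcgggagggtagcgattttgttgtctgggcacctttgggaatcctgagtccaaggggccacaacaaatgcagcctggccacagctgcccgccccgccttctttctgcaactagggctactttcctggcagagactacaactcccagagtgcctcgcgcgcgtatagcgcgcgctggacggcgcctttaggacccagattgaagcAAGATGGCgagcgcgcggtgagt
Mrpl9: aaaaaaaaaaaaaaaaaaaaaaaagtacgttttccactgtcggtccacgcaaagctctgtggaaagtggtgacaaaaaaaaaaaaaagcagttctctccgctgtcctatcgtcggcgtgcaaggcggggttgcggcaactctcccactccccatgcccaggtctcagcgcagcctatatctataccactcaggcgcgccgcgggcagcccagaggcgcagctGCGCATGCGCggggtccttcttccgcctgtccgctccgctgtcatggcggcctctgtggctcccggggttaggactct
Mrpl52: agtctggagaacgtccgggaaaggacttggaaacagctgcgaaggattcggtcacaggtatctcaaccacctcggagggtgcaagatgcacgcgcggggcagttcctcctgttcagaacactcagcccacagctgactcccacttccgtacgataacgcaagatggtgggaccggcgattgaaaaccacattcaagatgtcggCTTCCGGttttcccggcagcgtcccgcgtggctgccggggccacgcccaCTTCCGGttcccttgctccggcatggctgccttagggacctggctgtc

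The ETS site was present in the windows of 22 of 60 member genes (36.67%), against 9.93% of the 27025 genes with a window and 12.94% of the 17491 protein-coding ones. The YY1 core was found in 12 members (20%), against 3.19% of all genes and 3.57% of protein-coding genes, and its longer form in 5 members (8.33%), against 0.75% and 1.06%. The NRF1 site stood in the windows of 3 members, Mrpl9, Mrpl32 and Mrpl39 (5%), against 1.07% and 1.47%. The E-box CACGTG, the site that MYC can bind, was in 4 members (6.67%), against 8.09% of all genes and 8.91% of protein-coding genes. At least 1 of the ETS, YY1 core and NRF1 letters stood in 33 of the 60 windows (55%), against 13.4% and 16.89%. Member windows had a median GC content of 58.17% and 21 CpG pairs, against 57.33% and 15 in protein-coding genes, so base composition differed along with the motif shares. A match is a string of letters in a window and shows no binding.

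B cell markers were high on all arrays: all 7 measured lay above the median of each array, with a median log2 level between 10.2 and 11.8. Members agreed well between the LMP1 arrays, where none of the 69 differed by more than 0.5 log2, and between the CD40-activated arrays, where 1 did. The naive controls differed by more than 0.5 at 3 members. The YFP controls differed by more than 0.5 at 20 members and by more than 1 at 5, namely Mrpl2, Mrpl16, Mrpl18, Mrpl34 and Mrpl54, with Mrpl16 higher on array 2 and the others higher on array 1. The median log2 level of the 69 members was 8.35 and 8.37 on the LMP1 arrays, against 7.39 and 7.24 on the YFP controls. It was 7.70 and 7.77 on the CD40-activated arrays, against 7.17 and 7.16 on the naive controls. Both LMP1 arrays thus stood highest, both naive arrays lowest, and each activated pair above its own control with no overlap. Fewer cells of a type and less RNA per cell cannot be told apart in such bulk samples.

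**Figure D1:**
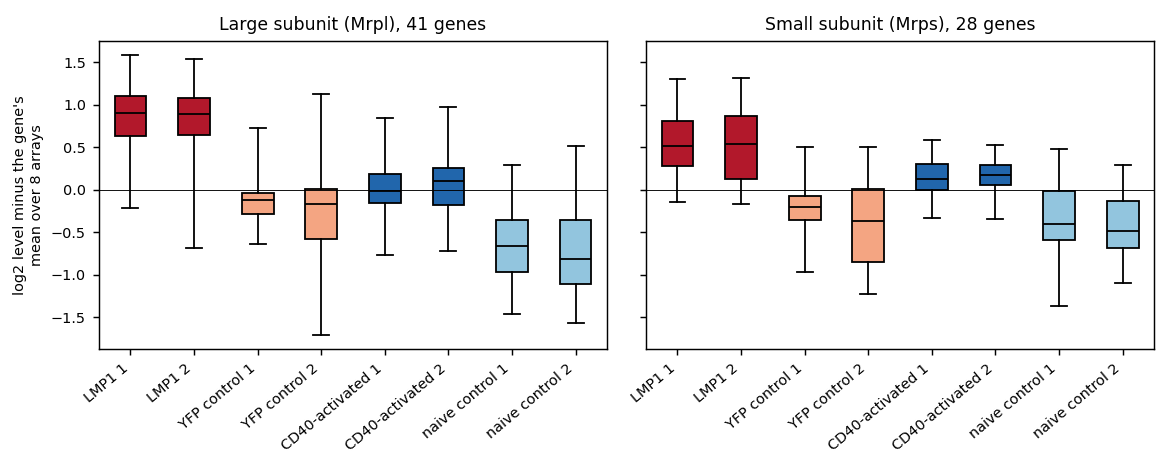
Log2 level of each member gene minus that gene's mean over the 8 arrays (vertical axis), for the 41 large-subunit genes (left) and the 28 small-subunit genes (right). Boxes span the quartiles with the median as a line, whiskers reach the lowest and highest gene, and each box is 1 array; the LMP1 arrays lie highest in both panels, and YFP control 2 has a wider box than YFP control 1.

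LMP1 cells carried more messenger RNA for most proteins of the mitochondrial ribosome than YFP control cells did. Of 69 members 50 rose, 32 of them by at least 1 log2 (a doubling of the measured level), and 0 fell (limma, adjusted p under 0.05 over all 21515 genes), nor did any at an unadjusted p under 0.05 (0 of 69). Among all genes 14.9% were called higher and 8.31% lower, and those higher by at least 1 log2 were not counted. The large subunit rose at 33 of 41 genes with a median log2 change of 1.08, and the small subunit at 17 of 28 with a median of 0.75, while the median over all genes was -0.08. Of the 69 members 68 had a change above 0, a count not made over all genes. Without LMP1 replicate 1 the large subunit count was lower, and without LMP1 replicate 2 the small subunit count was lower. The number of all genes called higher was lower in both fits too. The lone array of an arm was then assumed to vary like the other groups. Of genes called in either direction 64.2% were higher, a share that was 53.4% when each set of 4 arrays was quantile-normalized by itself; the member medians were then 0.80 and 0.54. B cell markers moved as well, with 5 of 7 lower in LMP1 cells and summed log2 levels of 73.5 to 73.8 in LMP1 cells and 79.6 to 81.8 in YFP control cells. Dendritic cell markers were higher in LMP1 cells at 2 of 7, Flt3 (2.995) and Zbtb46 (1.79), with sums of 43.0 to 43.9 in LMP1 and 37.0 to 38.4 in YFP control cells. Monocyte and macrophage markers were lower at 2 of 12, Adgre1 (-2.02) and Lyz2 (-1.91), with sums of 59.8 to 61.2 in LMP1 and 64.5 to 68.7 in YFP control cells, and T cell markers at 1 of 7. The part of these markers in the result was not tested.

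In the large subunit Mrpl38, a mitochondria-specific protein of the central protuberance, had log2 levels of 9.75 and 9.82 on the LMP1 arrays, against 8.24 and 7.24 on the YFP controls. Its change was 2.05 ± 0.28 (SE, n = 2 arrays per group; limma adjusted p = 0.000576). The groups did not overlap, though the controls were 1 log2 apart. That SE uses the spread of all 4 groups, while the gene's SD was 0.71 in YFP control and 0.05 in LMP1 cells. Mrpl19, homologue of bacterial L19, stood at 9.32 and 9.25 in LMP1 cells, against 7.47 and 7.17 in YFP control cells, a change of 1.97 ± 0.17 (limma adjusted p = 5.12e-05) with close replicates on both sides. Mrpl54 was at 9.94 and 10.04 in LMP1 cells, against 8.58 and 7.53 in YFP control cells, a change of 1.94 ± 0.30 (limma adjusted p = 0.00113). For Mrpl18, the L18 homologue of the central protuberance, the levels were 8.33 and 8.41 in LMP1 cells, against 7.22 and 6.06 in YFP control cells, and the change of 1.73 ± 0.31 was 1.15 without YFP control replicate 2. At the other end Mrpl24, homologue of an early-binding bacterial protein near the exit tunnel, had 9.23 and 8.76 in LMP1 cells, against 9.37 and 8.77 in YFP control cells, with overlapping arrays and a change of -0.08. Mrpl12, of the stalk that recruits translation factors, and Mrpl40 changed by 0.17 and 0.20 and did not pass.

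In the small subunit Mrps27, which binds ribosomal RNA through repeats of the pentatricopeptide type, stood at 8.33 and 8.35 in LMP1 cells, against 6.51 and 6.10 in YFP control cells. Its change of 2.04 ± 0.19 (SE; limma adjusted p = 7.88e-05) was the highest of the small subunit, and the groups lay far apart. Mrps5, homologue of bacterial S5, followed with 9.23 and 8.98 in LMP1 cells, against 7.63 and 6.83 in YFP control cells, a change of 1.88 ± 0.26. Mrps30, a protein of the large subunit by structure, had 8.44 and 8.52 in LMP1 cells, against 7.0 and 6.51 in YFP control cells, a change of 1.73 ± 0.21. Mrps7, the S7 homologue that organises the head of the small subunit, rose by 1.39 ± 0.26. The changes of Mrps36 (0.07), Mrps21 (0.10) and Mrps12, the S12 homologue at the decoding centre (0.24), did not pass. Mrps36, no longer counted as a ribosomal protein, had the smallest change among the Mrps genes, with an SE of 0.17, against 0.16 for Mrps21. It was also dim, with a mean log2 level of 5.15, below the medians of 5.52 to 5.68 of all probe sets on the arrays. The part of this low level in its small change was not tested.

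**Figure D2:**
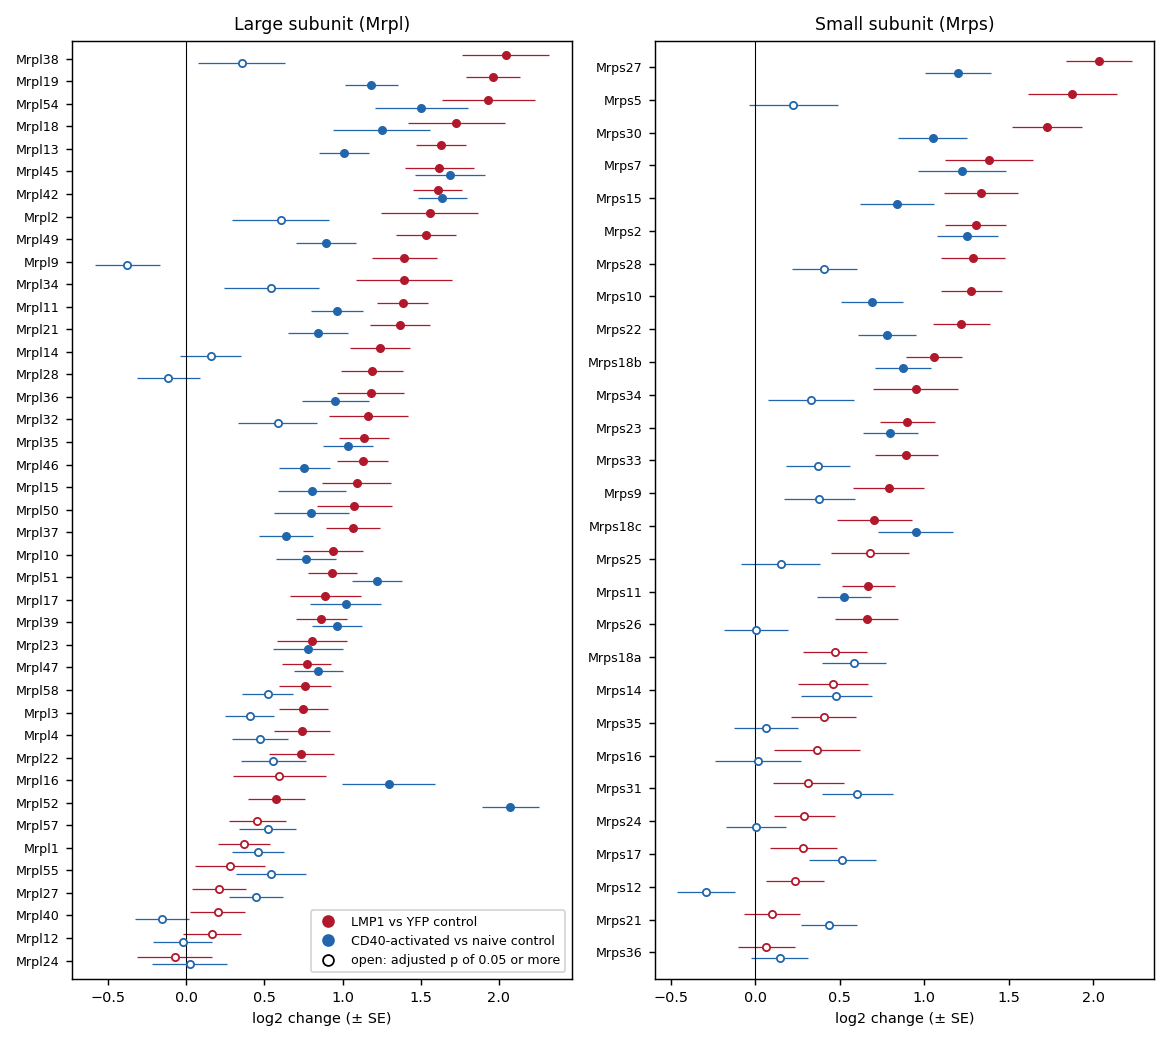
Log2 change of every member gene (points, with SE bars) in LMP1 against YFP control (red) and in CD40-activated against naive control (blue), sorted by the LMP1 change, with the large subunit on the left and the small subunit on the right. Filled points passed at an adjusted p under 0.05; all filled points lie above 0, from Mrpl52 (0.58) to Mrpl38 (2.05) among the red ones of the large subunit.

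CD40-activated cells carried more messenger RNA than naive control cells for 34 of the 69 members, 15 of them by at least 1 log2, while the other 35 did not pass. None fell (0 of 69) by the limma test, adjusted or unadjusted, where 11% of all genes were called higher and 6.65% lower. All genes higher by at least 1 log2 were not counted. The large subunit rose at 23 of 41 genes (median 0.77) and the small subunit at 11 of 28 (median 0.50), against a median of -0.05 over all genes. The counts of both subunits were lower without either CD40-activated array or naive control replicate 2. The number of all genes called higher was lower in these fits too. Quantile normalization within each set gave 15 large and 7 small members higher, with 1765 of the 21515 genes higher instead of 2373. The share of called genes that were higher, 62.4% here, was 73.3% with array medians subtracted. Naive control arrays also held more RNA of other cells. All 7 T cell markers were lower in CD40-activated cells, with summed log2 levels of 38.7 to 41.6 in CD40-activated and 59.0 to 60.4 in naive control cells, as were 6 of 8 NK cell markers (35.6 to 35.8 in CD40-activated and 49.6 to 53.5 in naive control cells) and 2 of 4 erythroid and platelet markers. Of the monocyte and macrophage markers 4 of 12 were lower and 1 higher, and of the neutrophil markers 2 of 9 were lower. The part of these cells in the member changes was not tested.

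Mrpl52 had log2 levels of 9.95 and 9.88 on the CD40-activated arrays, against 7.93 and 7.75 on the naive controls, a change of 2.08 ± 0.18 (SE, n = 2 arrays per group; limma adjusted p = 9.32e-05). It led the large subunit here. Mrpl45, which ties the ribosome to the inner membrane at the tunnel exit, stood at 8.17 and 7.86 in CD40-activated cells, against 6.56 and 6.09 in naive control cells, a change of 1.69 ± 0.22. Mrpl42 had 7.68 and 7.72 in CD40-activated cells, against 6.03 and 6.09 in naive control cells, a change of 1.64 ± 0.16 (limma adjusted p = 0.000138). Mrpl54 rose by 1.51 ± 0.30 and no longer passed without naive control replicate 2 (1.34) or CD40-activated replicate 1 (1.41). The lowest changes of the large subunit were those of Mrpl9 (-0.38), Mrpl40 (-0.16) and Mrpl28 (-0.12), none of which passed. In the small subunit Mrps2, the S2 homologue, stood at 7.42 and 7.27 in CD40-activated cells, against 5.92 and 6.26 in naive control cells, a change of 1.26 ± 0.18. Mrps7 (1.23), Mrps27 (1.20) and Mrps30 (1.05) came next. Mrps7 no longer passed without naive control replicate 2 (1.16) or either CD40-activated array (1.20 and 1.25), nor Mrps30 without CD40-activated replicate 2 (0.96). Mrps12 (-0.29), Mrps24 (0.01) and Mrps26 (0.01) lay lowest and did not pass.

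The members were also split into bacterial homologues and mitochondria-specific proteins. In LMP1 cells against YFP control 21 of 27 homologues and 12 of 14 mitochondria-specific proteins of the large subunit rose, with medians of 1.09 and 1.07. In the small subunit the counts were 9 of 15 homologues (median 0.71) and 8 of 12 mitochondria-specific proteins (median 0.90). In CD40-activated cells against naive control the large subunit gave 13 of 27 homologues (median 0.61) and 10 of 14 mitochondria-specific proteins (median 0.85), and the small subunit 6 of 15 (median 0.48) and 5 of 12 (median 0.60). No test of the difference between classes or between subunits was made. Moving Mrps30 and Mrps18a to the large subunit, where structures put them, gave 34 and 16 higher members in LMP1 cells.

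Mrps18a, Mrps18b and Mrps18c are paralogues related to bacterial S18, of which the ribosome holds each at its own place. In the split by class, Mrps18c was counted as a bacterial homologue, and Mrps18a and Mrps18b as mitochondria-specific despite that relation. Mrps18b stood at 9.68 on both LMP1 arrays, against 8.53 and 8.71 on the YFP controls, and rose by 1.06 ± 0.17 in LMP1 cells and by 0.88 ± 0.17 in CD40-activated cells, the second lost without CD40-activated replicate 1 (0.85). Its dimmer probe set rose by 1.14 and 0.77. Mrps18c rose by 0.71 ± 0.22 in LMP1 cells (limma adjusted p = 0.0439) and by 0.95 ± 0.22 in CD40-activated cells. The dimmer probe set of Mrps18c gave -0.22 and 0.05 and passed in neither, so the probe sets of this gene disagreed. The LMP1 call of Mrps18c was also lost without any 1 array of LMP1 or YFP control (0.63 to 0.78) and with array weights (0.71), and the CD40 call without naive control replicate 1 (0.72) or CD40-activated replicate 1 (0.70). Mrps18a did not pass in LMP1 cells (0.47) or in CD40-activated cells (0.59). Of the other genes with a pair of probe sets, Mrpl36 rose in LMP1 cells on both (1.18 and 0.64) and in CD40-activated cells on the brighter only (0.96, against 0.50), a call lost without any 1 array of CD40-activated or naive control (0.90 to 1.02), and Mrps17 passed on neither in either comparison.

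Most members that rose with CD40 also rose with LMP1. Of the 69 members 33 were higher in both comparisons, which is 66% of the 50 that rose in LMP1 cells and 97.1% of the 34 that rose in CD40-activated cells. Over all 21515 genes 1442 were higher in both, which is 45% of the 3208 higher in LMP1 cells and 60.8% of the 2373 higher in CD40-activated cells. These comparisons share no arrays but rest on the same estimate of the spread of each gene, so their calls are not independent. The member shares were not tested against those of all genes. Another 17 passed in LMP1 cells without passing in CD40-activated cells, 1 did the reverse (Mrpl16, named after its values were seen) and 18 passed in neither. Mrpl16 had 9.59 and 9.64 in LMP1 cells, against 8.46 and 9.58 in YFP control cells, so YFP control 2 reached the LMP1 level, and the change was 0.60 ± 0.30. Its CD40 change of 1.30 lost its call without any 1 array of CD40-activated or naive control (1.23 to 1.36). Changes above 0 in both comparisons were seen at 63 members, and 49 had the larger change in LMP1 cells, 28 of the large and 21 of the small subunit. Such counts were not made over all genes. The median of the LMP1 change minus the CD40 change was 0.285 over the members and 0.025 over all genes. Mean log2 values under 6 were seen for 3 members, Mrpl12, Mrps14 and Mrps36, of which 0 passed in either comparison.

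The responses to LMP1 and to CD40 differed at few members. The difference, the LMP1 change minus the CD40 change, was itself tested for every gene. It passed for 6 members, 5 with a larger and 1 with a smaller change in LMP1 cells, which is 5 and 1 of 69 against 4.2% and 4.12% of all genes. Mrpl9 had the largest difference, 1.78 ± 0.29 (SE; limma adjusted p = 0.00574): it stood at 8.75 and 9.03 in LMP1 cells, against 7.77 and 7.22 in YFP control cells, and at 7.67 and 7.77 in CD40-activated cells, against 8.07 and 8.13 in naive control cells. Its level was thus higher than control in one response and below control on both arrays in the other, where it did not pass. For Mrpl38 the difference was 1.69 ± 0.39, with 8.20 and 8.25 in CD40-activated cells, against 7.76 and 7.98 in naive control cells. For Mrps5 it was 1.65 ± 0.37, with 7.98 and 8.13 in CD40-activated cells, against 8.04 and 7.62 in naive control cells. Mrpl28, the L28 homologue, had 8.04 and 7.82 in LMP1 cells, against 6.88 and 6.60 in YFP control cells, and 7.02 and 6.91 in CD40-activated cells, against 7.30 and 6.86 in naive control cells, a difference of 1.31 ± 0.28. Mrpl14, the L14 homologue at the face between the subunits, differed by 1.09 ± 0.28.

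Mrpl52 went the other way, with a difference of -1.50 ± 0.26 (SE; limma adjusted p = 0.00671). It had 9.63 and 9.84 in LMP1 cells, against 9.33 and 8.99 in YFP control cells, a change of 0.58 ± 0.18 (limma adjusted p = 0.0461), against 2.08 with CD40. Its LMP1 call was lost without YFP control replicate 2 (0.41) or any 1 array of LMP1 (0.47 and 0.68) or CD40-activated (0.58 each). YFP control cells already held more of it than naive control cells, by 1.32 ± 0.18. The call for Mrpl9 held without any 1 array, that for Mrpl52 was lost without LMP1 replicate 1 (-1.40). The call for Mrpl38 was lost without either LMP1, CD40-activated or naive control array (1.58 to 1.80), and that for Mrps5 (1.44 to 1.78) and Mrpl28 (1.09 to 1.42) without either LMP1 or CD40-activated array or naive control replicate 1. The call for Mrpl14 was lost without any 1 array but YFP control replicate 1 (0.85 to 1.21). The number of calls moved with the array left out, among the members as over all genes. Both numbers rose without YFP control replicate 1 and fell without LMP1 replicate 1. T cell markers differed upward in the same contrast at 7 of 7 and NK cell markers at 5 of 8, with higher levels in the naive controls. Dendritic cell markers differed upward at 3 of 7, and erythroid and platelet markers at 2 of 4. Downward differences were seen at 3 of 7 B cell markers and 2 of 12 monocyte and macrophage markers. The part of these markers in the differences was not tested.

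**Figure D3:**
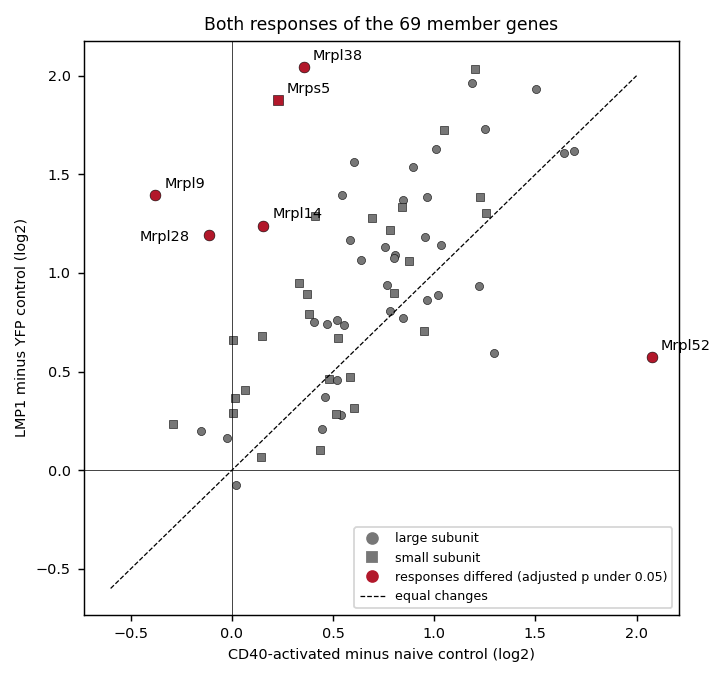
Change in CD40-activated against naive control (horizontal axis, log2) and in LMP1 against YFP control (vertical axis, log2) for the 69 member genes, with circles for the large and squares for the small subunit. Red points, named in the plot, are the 6 members whose changes differed; Mrpl9, Mrpl14, Mrpl28, Mrpl38 and Mrps5 lie above the dashed line of equal changes and Mrpl52 below it.

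LMP1 cells were also set directly against CD40-activated cells. Of 69 members 37 were higher in LMP1 cells and 1, Mrpl24, was lower, where 9.66% of all genes were called higher and 5.17% lower. The large subunit gave 27 of 41 (median 0.84) and the small subunit 10 of 28 (median 0.35). The counts of both subunits were lower without any 1 array of LMP1 or CD40-activated, as was the number of all genes called higher. Mrpl34, the L34 homologue, led with 9.73 and 9.81 in LMP1 cells, against 7.92 and 7.55 in CD40-activated cells, a change of 2.04 ± 0.31 (SE; limma adjusted p = 0.00176). Mrpl50 (1.83), Mrpl57 (1.77) and Mrpl38 (1.56) followed, and in the small subunit Mrps18b (1.19), Mrps2 (1.17), Mrps5 (1.05) and Mrps27 (1.00). Mrps5 and Mrps27 lost their calls without any 1 array of either group (0.93 to 1.18 and 0.96 to 1.04). Mrpl24 had 9.23 and 8.76 in LMP1 cells, against 9.76 and 9.98 in CD40-activated cells, a change of -0.88 ± 0.24 (limma adjusted p = 0.0361). That call was lost without any 1 array of LMP1, CD40-activated or naive control (-1.11 to -0.64) and with array medians subtracted. Mrps18a passed narrowly at 0.65, and its call was lost without any 1 array of either group (0.56 to 0.74). Mrpl18 (-0.29), Mrpl52 (-0.18), Mrps16 (-0.38), Mrps26 (-0.28) and Mrps9 (-0.20) lay below 0 and did not pass. B cell markers were lower in LMP1 cells at 4 of 7, among them Cd22 (-2.06) and Blk (-1.32), with summed log2 levels of 73.5 to 73.8 in LMP1 and 78.4 to 78.8 in CD40-activated cells. Dendritic cell markers were higher at 3 of 7, Flt3 (2.59), Batf3 (1.62) and Zbtb46 (1.21), and lower at 1, Siglech (-1.29), with sums of 43.0 to 43.9 in LMP1 and 38.5 to 39.4 in CD40-activated cells. Markers of the other cell types passed at 0 by limma; at an unadjusted p under 0.05, 1 of 7 T cell markers and 1 of 12 monocyte and macrophage markers were lower. The part of the B cell and dendritic cell markers in the member differences was not tested.

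The control groups differed as well. YFP control cells were higher than naive control cells at 22 members and lower at 4, where 10.9% of all genes were called higher and 7.59% lower. The large subunit was higher at 17 and lower at 1, and the small subunit higher at 5 and lower at 3. Of the 37 members higher in LMP1 than in CD40-activated cells, 21 were among the 22 that YFP control cells held above naive control cells, which is 56.8% and 95.5% of these lists. Over all genes 843 were higher in both, which is 40.6% of the 2078 and 35.8% of the 2352 higher in each. The comparisons share no array, but both use the same estimate of the spread of each gene. Both also set the F1 females of the earlier array set against B6/J males of the other set. Mrpl57 is an example, with 8.45 and 8.37 in LMP1, 8.01 and 7.90 in YFP control, 6.51 and 6.78 in CD40-activated and 5.96 and 6.29 in naive control cells. Its direct difference of 1.77 stood beside one of 1.83 between the controls, and the difference of its responses was -0.07 ± 0.26. Mrpl16 (2.08), Mrpl17 of the tunnel exit (1.57), Mrpl50 (1.56) and Mrps21 (1.28), Mrps2 (1.12) and Mrps18b (1.01) were also higher in YFP control cells. Lower ones were Mrps26, at 7.71 and 7.40 in YFP control and 8.67 and 8.30 in naive control cells (-0.93 ± 0.19), Mrpl24 (-0.78), Mrps12 (-0.70) and Mrps28 (-0.62). Mrpl24 lost its call without any 1 array but YFP control replicate 1, and was at -0.48 without YFP control replicate 2. Mrps28 lost its call without any 1 array but YFP control replicate 2, and was at -0.38 without YFP control replicate 1. Mrps12 lost its call without naive control replicate 1 (-0.63). With only the YFP and naive control arrays in the fit, 9 large and 3 small members were higher and 0 lower. Over all genes that fit called 990 higher and 547 lower, instead of 2352 and 1634. Without YFP control replicate 1 more members and more of all genes were lower. Without naive control replicate 2 fewer of both were higher. All 7 T cell markers were lower in YFP control cells (summed log2 levels 37.7 to 41.6, against 59.0 to 60.4 in naive control cells). So were 7 of 8 NK cell, 4 of 7 dendritic cell and 2 of 4 erythroid and platelet markers. Of the monocyte and macrophage markers 2 of 12 were higher, with Adgre1 at 1.91, and 2 were lower. Of the B cell markers 1 of 7 was higher, and of the neutrophil markers 1 of 9 was lower. The part of these markers was not tested.

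**Figure D4:**
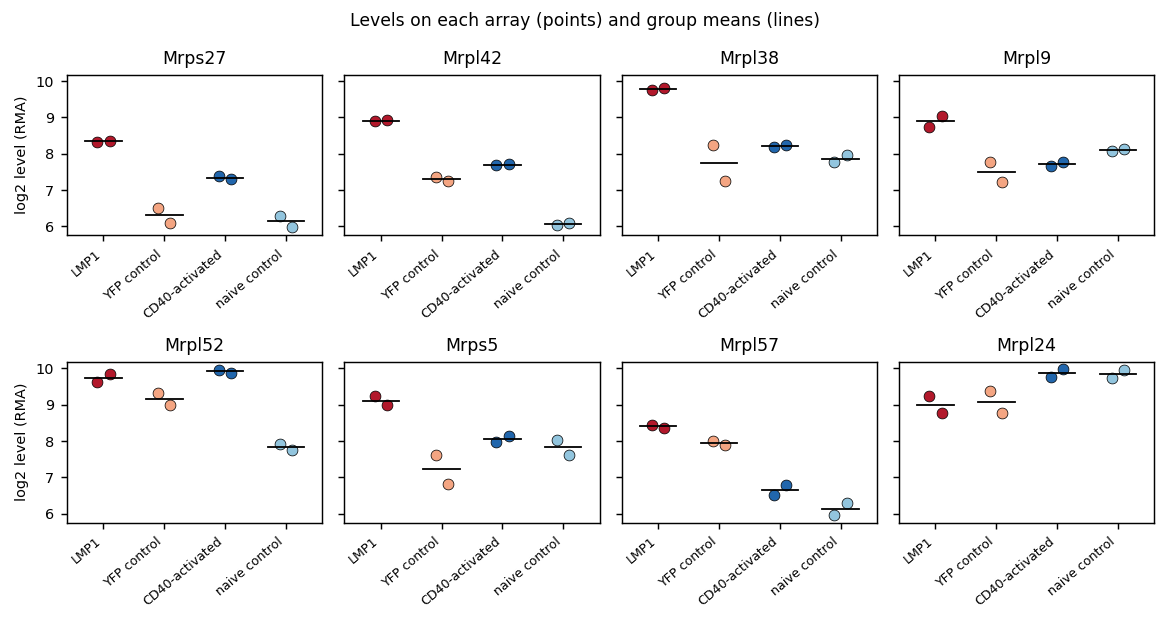
Log2 level (vertical axis) of 8 member genes on each array (points), with group means as lines, for LMP1, YFP control, CD40-activated and naive control cells. Mrps27 and Mrpl42 lie above control in both activated groups, Mrpl38, Mrpl9 and Mrps5 in LMP1 cells, Mrpl52 most of all in CD40-activated cells, Mrpl57 in both groups of the F1 cross, and Mrpl24 lies lower in both of these.

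The promoter matches were then counted by response. The ETS site was in the windows of 16 of 42 members that rose in LMP1 cells and 6 of 18 that did not pass, the YY1 core in 9 of 42 and 3 of 18, the NRF1 site in 3 of 42 and 0 of 18, and the E-box in 4 of 42 and 0 of 18. Mrps27 with the long YY1 form and the ETS site rose by 2.04 in LMP1 and 1.20 in CD40-activated cells, and Mrpl42 with the YY1 core by 1.61 and 1.64. Mrps18a, with the same pair of matches as Mrps27, did not pass in either. The window of Mrps12 holds the YY1 core and the ETS site, and that gene did not pass in LMP1 cells (0.24).

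Other genes of mitochondrial gene expression were followed in lists of known function, to be read beside the 14.9% of all genes called higher and 8.31% called lower in LMP1 cells, and the 11% and 6.65% in CD40-activated cells. Factors that mature and assemble the mitochondrial ribosome rose at 12 of 28 in LMP1 cells (median 0.53) and 7 of 28 in CD40-activated cells (median 0.30), and 0 fell in either by limma (0 and 1 at an unadjusted p under 0.05). The GTPase Noa1 rose by 1.93 and 1.34, Fastkd2 by 1.41 and 1.17, and Rcc1l by 1.65 in LMP1 cells, with 0.09 in CD40-activated cells not passing. The CD40 call of Noa1 was lost without CD40-activated replicate 1 (1.21). Mitochondrial translation factors rose at 10 of 14 (median 0.63) and 6 of 14 (median 0.54), and 0 fell, also at an unadjusted p under 0.05. The elongation factors Tsfm (1.97), Gfm1 (1.76) and Tufm (1.75) had the highest changes in LMP1 cells. Tsfm stood at 7.89 and 7.92 in LMP1 cells, against 6.70 and 5.18 in YFP control cells, and its change was 1.21 without YFP control replicate 2 and 2.73 without replicate 1, so its place ahead of the others rested on 1 control array. Without YFP control replicate 2 Gfm1 was at 1.31 and Tufm at 1.60. The highest changes in CD40-activated cells were those of the ribosome recycling factor Mrrf (1.26), Lrpprc (1.11) and Tufm (1.11). The list of mitochondrial import and chaperones, which also holds Lonp1 and Clpx, rose at 21 of 23 in LMP1 cells (median 1.32) and 11 of 23 in CD40-activated cells (median 0.65). Timm9 (2.30 and 1.15), Timm50 (2.14 and 1.09) and Hspd1 (1.88, and 0.44 without passing) were the highest in LMP1 cells, and Tomm40 (1.40) in CD40-activated cells. The CD40 calls of Timm50 (0.92) and Tomm40 (1.26) were lost without CD40-activated replicate 1.

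Products and partners of the mitochondrial ribosome moved less evenly. Of the 8 mitochondrial messenger RNAs with a probe set, 0 passed in LMP1 cells at an adjusted p under 0.05 (limma; 2 were lower at an unadjusted p under 0.05, with ND6 nearest at -0.56, adjusted p = 0.0594) and 1, ND6, fell in CD40-activated cells by 0.79, a call lost without naive control replicate 2 or either CD40-activated array. All 8 had changes below 0 in LMP1 cells, with a median of -0.29. Apart from ND6 they lay at log2 levels of 12.57 to 13.51 on all arrays. Whether such bright signals show a change in full was not tested. The controls differed at ND6, with 8.64 and 9.05 in YFP control and 11.35 and 11.61 in naive control cells. Nuclear subunits of oxidative phosphorylation, which assemble with those products, rose at 34 of 72 in LMP1 cells (median 0.64) and 30 of 72 in CD40-activated cells (median 0.63), and 0 fell by limma (0 and 4 at an unadjusted p under 0.05). Cytosolic ribosomal proteins rose at 16 of 43 in LMP1 cells (median 0.54) and at 10 of 43 in CD40-activated cells (median 0.41), where 3 of 43 fell, against 6.65% of all genes called lower there. Genes that copy and transcribe mitochondrial DNA rose at 7 of 17 and fell at 2 in LMP1 cells, against 14.9% and 8.31% of all genes, with the pyrimidine carrier Slc25a33 at 2.20 and the nucleoside kinases Tk2 at -1.87 and Dguok at -0.95. Tfam, which packs the DNA, stood at 8.24 and 7.97 in LMP1 cells, against 7.36 and 5.46 in YFP control cells, a change of 1.70. That change was 0.75 without YFP control replicate 2 and 2.65 without replicate 1, and its call was lost without either LMP1 array. In CD40-activated cells 3 of 17 rose and 0 fell by limma, also at an unadjusted p under 0.05 (0), where 11% of all genes were called higher.

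Regulators of mitochondrial genes were called about as often as all genes: 2 of 13 rose and 1 fell in LMP1 cells, where 14.9% of all genes were higher and 8.31% lower, and 1 of 13 rose and 0 fell in CD40-activated cells (limma, with 0 lower at an unadjusted p under 0.05 too), where the shares were 11% and 6.65%. Myc rose by 1.66 and Pprc1, a coactivator of NRF1, by 1.10 in LMP1 cells, and Ppargc1a, the coactivator PGC-1alpha, fell by 1.31. None of these passed in CD40-activated cells (0.08, 0.19 and 0.26), where Tfe3 rose by 0.87, a call lost without naive control replicate 2 (0.68) or either CD40-activated array. Nrf1 (0.17 and -0.20), the GABP subunits Gabpa (0.41 and 0.12), Gabpb1 (0.32 and 0.07) and Gabpb2 (0.10 and 0.04), and Yy1 (0.28 and -0.28) did not pass in LMP1 or in CD40-activated cells. Max (-0.05 and 0.41), Esrra (-0.22 and -0.28), Perm1 (-0.19 and -0.28) and Ppargc1b (0.40 and 0.33) did not pass either. Ppargc1a stood at 6.38 and 5.85 in LMP1 cells, against 7.12 and 7.72 in YFP control cells. It was at 6.33 and 6.25 in CD40-activated and 6.07 and 5.99 in naive control cells, so the YFP controls stood apart from the other groups.

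Proteins of the mitochondrial ribosome with names of another kind were few on the arrays. Dap3, the GTP-binding protein of the small subunit, rose by 0.83 in LMP1 and 0.63 in CD40-activated cells, and Gadd45gip1, of the large subunit, by 0.62 in LMP1 cells, with 0.40 in CD40-activated cells not passing. The calls of Dap3 were lost without either LMP1 array, and that for CD40 also without any 1 array of CD40-activated or naive control. The LMP1 call of Gadd45gip1 was lost without YFP control replicate 2 (0.45) or any 1 array of LMP1 or CD40-activated. Ptcd3 could not be given a direction. Its brighter probe set fell by 2.20 in LMP1 cells, with 8.20 and 8.18 against 10.52 and 10.26 in YFP control cells, and by 2.86 in CD40-activated cells. Its dimmer probe set rose by 1.18 in LMP1 cells, with 9.69 and 9.61 against 8.21 and 8.74 in YFP control cells, and by 0.69 in CD40-activated cells. Mrpl57 and Mrpl58, once known by other symbols, are counted among the members; Mrpl58, which frees stalled ribosomes of their peptide, rose by 0.76 in LMP1 cells, a call lost without LMP1 replicate 1 (0.73) or 2 (0.79), and had 0.52 in CD40-activated cells (limma adjusted p = 0.0559).

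**Figure D5:**
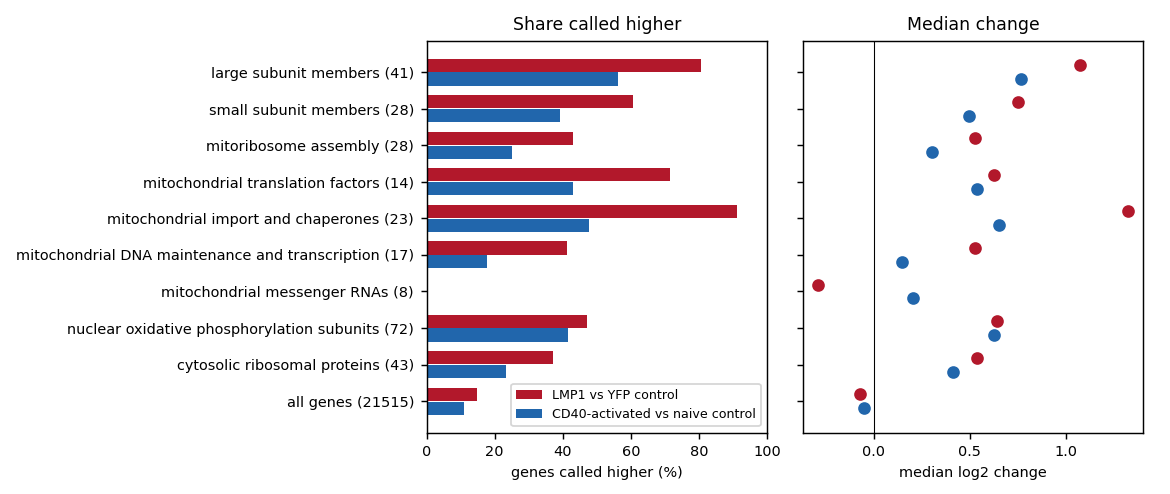
Percentage of genes called higher (left) and median log2 change (right) in LMP1 against YFP control (red) and CD40-activated against naive control (blue), for both subunits, 7 related lists and all genes, with the number of genes in parentheses. Every list but the mitochondrial messenger RNAs, with 0 of 8 called higher, shows a longer red bar than all genes (14.9%).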

How the data were processed

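The deposited table holds log2 values, 1 per probe set and array. Per the submitters' processing notes the authors ran RMA, from the package oligo, which corrects background, normalizes by quantiles and summarises probes; versions and genome build are not given in the sources used here. The deposited arrays did not share 1 distribution, with medians of 5.52 to 5.68 and SDs of 1.88 (naive control 2) to 2.15 (LMP1 1). What this did to the member changes was not tested beyond quantile normalization within each set. Symbols came from the platform's annotation. Of 25349 probe sets, 22225 had 1 symbol, 616 several and 2508 none. The brightest probe set stood for a gene, which left 21515 genes. A linear model with a mean for each of the 4 groups was fitted to the 8 arrays by limma (version 3.58.1, R 4.3.3, default lmFit and eBayes), leaving 4 residual degrees of freedom beside 5.75 prior ones. Two-sided p-values were adjusted over the 21515 genes after Benjamini and Hochberg, with a threshold of 0.05; "rose" and "fell" mean past it. Errors are SE of the fit, which holds 1 spread per gene for all 4 groups. The median absolute difference between replicates over all genes was 0.28 log2 in YFP control and 0.22 in naive control cells. It was 0.14 in CD40-activated and 0.12 in LMP1 cells, so the groups did not share 1 spread. A change of at least 1 log2 was counted as large. The number of arrays limits the precision, and p-values measure the spread between these arrays. The procedure was run on simulated data with 1 spread per gene for all groups, so unequal spread between groups was not covered.

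The members and lists were chosen with earlier results of these data known, so lists are given as counts and medians beside all genes, with no list test. Members named are, per comparison and subunit, the 4 highest and 3 lowest changes, every member past the threshold against the trend or in the difference of responses, the S18 paralogues, Mrps30 and Mrps36. Related lists gave genes among their 3 highest and 2 lowest, and regulators and proteins under other names in full. Any other gene named was chosen after its values were seen. Motifs were searched on both strands of RefSeq windows.

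Alternatives were a fit of only the groups compared, trend with robust fitting, the dimmest 25% of genes left out, array medians subtracted, quantile normalization within each set, all probe sets, array weights, a replicate block, subunits as in structures, and each array left out.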

Additional observations from a re-analysis of the deposited data

Results flagged for a closer look

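For 6 members the LMP1 change and the CD40 change differed by the test of the difference itself. The change was larger in LMP1 cells at 5 of 69 and smaller at 1, where 4.2% and 4.12% of all genes passed in these directions, so the count lay near the share of all genes. The difference, LMP1 change minus CD40 change on the log2 scale, was 1.78 for Mrpl9, 1.69 for Mrpl38, 1.65 for Mrps5, 1.31 for Mrpl28, 1.09 for Mrpl14 and -1.50 for Mrpl52. Mrpl38 and Mrps5 rose in LMP1 cells and did not pass in CD40-activated cells, as did Mrpl9, Mrpl28 and Mrpl14, while Mrpl52 rose in both. Of these 6 calls, that of Mrpl9 held without any 1 array, and the other 5 were each lost when at least 1 array was left out.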

How the results depend on the processing

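Leaving out 1 array gave 21 to 33 large and 11 to 18 small members higher in LMP1 against YFP control, and 9 to 28 and 3 to 14 in CD40-activated against naive control, with 0 lower in all of these fits. For LMP1 against CD40-activated the ranges were 12 to 30, 2 to 12 and 0 to 1 lower. For the difference of responses they were 1 to 11, 0 to 7 and 0 to 2 lower, and for YFP control against naive control 12 to 19, 3 to 5 and 1 to 13 lower. Quantile normalization within each set gave 15 large and 7 small members higher with CD40. Subtracting array medians gave 0 members lower in LMP1 against CD40-activated and 2 lower in YFP control against naive control. With only the groups compared, YFP control against naive control gave 9, 3 and 0 lower, and array weights 3 small members higher and 1 lower there. For the difference of responses, which uses all groups, that setting was not run. The number of calls over all genes shifted with these settings too, so the shifts were not particular to the members. Their cause was not tested, beyond the smaller number of arrays. Replicate numbers showed no visible pairing (correlation of same-numbered deviations 0.07 and -0.07), which cannot tell whether samples were prepared in pairs. With the replicate block 32 large and 17 small members were higher in LMP1 against YFP control. Changes that turned sign were all near 0 and passed in no setting that turned them. With array medians subtracted Mrpl24 in LMP1 against YFP control was at 0.01. With quantile normalization within each set Mrpl40 (-0.13) and Mrps21 (-0.19) in LMP1 cells and Mrps24 (-0.24) and Mrps26 (-0.25) in CD40-activated cells lay below 0. Leaving out 1 array turned the sign in LMP1 against YFP control for Mrpl24 (-0.38 to 0.23) and Mrps36 (-0.055 to 0.19), in CD40-activated against naive control for Mrpl28 (-0.34 to 0.11), Mrpl40 (-0.33 to 0.02), Mrps24 (-0.12 to 0.13) and Mrps26 (-0.18 to 0.19), in LMP1 against CD40-activated for Mrps18c (-0.085 to 0.42), in the difference of responses for Mrps18a (-0.34 to 0.11), Mrps18c (-0.50 to 0.005) and Mrps36 (-0.20 to 0.04), and for YFP control against naive control in Mrps30 (-0.38 to 0.11).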
